A study of Mus musculus with 2 samples.

Results

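EGR1 binding was mapped by ChIP-seq in the frontal cortex of male mice, and the 838 EGR1 peaks that lay at CpG-poor promoters are described here. The members were chosen from the 12014 deposited peaks by position and sequence alone. The centre had to lie within 500 bp of the transcription start site (TSS) of a protein-coding gene, and the peak sequence had to have an observed/expected CpG ratio under 0.6. This ratio is the number of CpG dinucleotides divided by the number that the C and G content of the sequence would give. Of 11938 peaks on assembled chromosomes, 5507 lay within 500 bp of such a TSS. A further 625 of these were left out because TSSs of genes on opposite strands lay within 1 kb, and of the 4882 that were left the 838 members were 17.2%. The other 4044 had a ratio of 0.6 or more and are called CpG-rich promoter peaks below.

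The mice were F1 hybrids labelled C57BL6N/129SvEv, bred from C57BL/6N males and 129SvEv females, 6 weeks old, and the labels name no knockout and no treatment. Several animals were pooled for each of 2 ChIP experiments, and the deposited list merges both. Each peak carries an irreproducible discovery rate (IDR), a measure of how well its rank was repeated between the experiments. A low IDR stands for a peak near the top of both rankings, and the authors kept peaks up to an IDR of 2%. Read counts are not part of the list, so neither the depth behind a peak nor the spread between the experiments could be computed. Shares are therefore given with 95% Wilson intervals, which cover counting over peaks only, and no difference below was tested over samples. The tissue holds many cell types, so that binding in fewer cells and weaker binding per cell cannot be told apart, and since no transcripts were measured in these samples the tissue could not be checked against its markers.

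EGR1 (also Zif268) is a zinc-finger transcription factor whose gene is switched on within minutes of neuronal activity, and it is widely used as a mark of activated neurons. Its zinc fingers read a GC-rich element in which CpGs stand near both ends. Most promoters of broadly used mammalian genes lie in CpG islands that stay unmethylated, whereas CpG-poor promoters are typical of tissue-restricted genes and are more often methylated. Methylated cytosine is prone to mutate to thymine, by which CpG turns into TG or CA over evolution.

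The element searched was GCGGGGGCG or GCGTGGGCG on either strand, and 135 members held it. The stretches below come from members with this exact motif that had a low IDR, with Nab2, Dlg4 and Syt1 added for the roles of their products. They are read from mm10 on the strand of the gene, and capitals mark the motif. Where it lies on the other strand it reads CGCCCCCGC or CGCCCACGC. Actn1, which encodes the actin cross-linker alpha-actinin, and Ralb, a small GTPase, carry it at 35 and 199 bp upstream of the TSS. Akirin1 encodes a nuclear protein, Lgmn a lysosomal protease, Gal3st3 a sulfotransferase of sugar chains and Aplp2 a relative of the amyloid precursor. Nab2 encodes a corepressor that binds EGR1 itself. Dlg4 encodes PSD-95, the main scaffold of the postsynaptic density, and Syt1 the calcium sensor of vesicle release. Their sites lie in an annotated exon or within 10 bases of one, and are shown with only 10 bases to each side.
Actn1 (chr12:80260372-80260440, minus strand): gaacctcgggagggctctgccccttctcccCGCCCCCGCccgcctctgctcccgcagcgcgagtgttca
Akirin1 (chr4:123750422-123750502, minus strand): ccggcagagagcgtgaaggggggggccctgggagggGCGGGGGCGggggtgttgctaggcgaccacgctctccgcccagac
Ralb (chr1:119504953-119505033, minus strand): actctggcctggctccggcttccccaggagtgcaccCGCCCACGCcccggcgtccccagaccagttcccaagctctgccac
Lgmn (chr12:102439831-102439911, minus strand): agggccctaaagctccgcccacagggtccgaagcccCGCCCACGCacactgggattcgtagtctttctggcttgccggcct
Gal3st3 (chr19:5298225-5298305, plus strand): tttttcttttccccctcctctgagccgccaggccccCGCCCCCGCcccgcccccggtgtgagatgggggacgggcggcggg
Aplp2 (chr9:31211997-31212077, minus strand): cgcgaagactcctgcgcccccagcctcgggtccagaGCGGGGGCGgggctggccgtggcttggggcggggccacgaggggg
Nab2 (chr10:127668808-127668888, minus strand): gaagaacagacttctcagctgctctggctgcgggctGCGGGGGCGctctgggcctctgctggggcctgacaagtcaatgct
Dlg4 (chr11:70029536-70029564, plus strand): ggatgcactgCGCCCACGCccacgaatag
Syt1 (chr10:109010755-109010783, minus strand): tgtgtgcaggGCGGGGGCGgccagctggg

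Many of the members with the lowest IDR had no exact motif but a site that differed from it at 1 base. In the next set capitals mark that site, and the difference is written with the base of the motif, its position counted from 1 at the 5′ end of the motif, and the base of the site. The site of Acly, which encodes the enzyme that makes cytosolic acetyl-CoA, has G1A. The sites of Mtrf1l (a release factor of mitochondrial translation), Sfxn3 (a mitochondrial carrier) and Vgf (an activity-induced neuropeptide precursor) have C8T. Those of Srcin1 (an adaptor of Src kinase at synapses), Dnajb5 (a co-chaperone) and Fosl2 (a FOS family factor) have C8A. Each C8T or C8A removes the CpG at the 3′ end of the motif. The Sfxn3 site lies in an annotated exon or within 10 bases of one and is shown with 10 bases to each side.
Acly (chr11:100528031-100528111, minus strand): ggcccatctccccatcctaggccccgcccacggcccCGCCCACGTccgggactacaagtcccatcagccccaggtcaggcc
Mtrf1l (chr10:5824057-5824137, minus strand): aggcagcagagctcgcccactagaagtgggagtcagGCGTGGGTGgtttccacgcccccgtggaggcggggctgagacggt
Srcin1 (chr11:97574055-97574135, minus strand): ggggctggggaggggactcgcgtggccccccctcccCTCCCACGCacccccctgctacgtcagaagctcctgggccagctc
Sfxn3 (chr19:45047535-45047563, plus strand): actgggtgctGCGGGGGTGggtgcctcca
Dnajb5 (chr4:42950314-42950394, plus strand): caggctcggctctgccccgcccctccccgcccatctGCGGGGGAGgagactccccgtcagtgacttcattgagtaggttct
Fosl2 (chr5:32135699-32135779, plus strand): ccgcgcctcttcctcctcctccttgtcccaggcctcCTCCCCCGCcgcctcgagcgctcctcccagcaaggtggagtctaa
Vgf (chr5:137030581-137030661, plus strand): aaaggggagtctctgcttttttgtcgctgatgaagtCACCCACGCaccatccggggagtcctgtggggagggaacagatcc

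The last set shows members with a TATA box, TATAAA or TATATA starting 40 to 20 bp upstream of the TSS, and a peak without any CpG. Capitals mark the TATA box, and each stretch ends at the base before the TSS. Gadd45g (a growth arrest and DNA repair gene induced by activity), Kazald1 (a secreted protein), Fam83d (a spindle protein), Abr (a regulator of small GTPases), Ecm1 (extracellular matrix) and Rai2 were 6 of the 8 members of this kind. The Dlgap3 stretch is the part upstream of the TSS of a peak with 0 CpGs. Dlgap3 encodes a postsynaptic scaffold, and without CpGs its peak can hold neither an exact nor a 1-mismatch site. The capitals in its stretch mark a form of the motif in which T stands at the position of each C, so that both CpGs are TG.
Gadd45g (chr13:51846618-51846677, plus strand): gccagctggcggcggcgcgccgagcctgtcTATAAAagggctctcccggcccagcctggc
Kazald1 (chr19:45075181-45075240, plus strand): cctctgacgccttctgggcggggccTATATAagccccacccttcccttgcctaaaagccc
Fam83d (chr2:158768033-158768092, plus strand): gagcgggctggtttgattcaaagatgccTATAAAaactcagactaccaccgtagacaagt
Abr (chr11:76509420-76509479, minus strand): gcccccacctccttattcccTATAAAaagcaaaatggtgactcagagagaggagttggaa
Ecm1 (chr3:95739570-95739629, minus strand): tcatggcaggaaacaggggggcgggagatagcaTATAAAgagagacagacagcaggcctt
Rai2 (chrX:161717009-161717068, plus strand): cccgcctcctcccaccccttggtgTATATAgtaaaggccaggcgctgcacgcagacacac
Dlgap3 (chr4:127172790-127172879, plus strand): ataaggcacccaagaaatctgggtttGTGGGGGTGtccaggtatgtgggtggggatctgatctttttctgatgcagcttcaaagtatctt

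The members ran through the whole range of IDR, from 1.38e-08 at Acly to 0.0199, with a median of 0.000224, and with quartiles of 3.42e-06 and 0.00297. The median of CpG-rich promoter peaks was 3.315e-05, and of all peaks on assembled chromosomes 0.000325. An IDR of 0.001 or less was reached by 517 members, or 61.7% (58.4 to 64.9%). The share was 71.7% (70.3 to 73.0%) in CpG-rich promoter peaks, 71.8% (68.2 to 75.2%) in the promoter peaks near genes on opposite strands and 59.5% (58.6 to 60.4%) in all peaks. The interval of the members did not overlap that of CpG-rich promoter peaks, but it overlapped that of all peaks. With a CpG ratio limit of 0.5 the share of the members was 58.2% (53.5 to 62.6%), an interval that holds the 59.5% of all peaks.

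The 10 members with the lowest IDR were peaks of Acly (1.38e-08), Mtrf1l (1.50e-08), Srcin1 (2.25e-08), Actn1 (2.58e-08), Slain1 (2.70e-08), Akirin1 (2.88e-08), Sfxn3 (3.02e-08), Dnajb5 (3.03e-08), Ralb (3.11e-08) and Ylpm1 (3.24e-08). Slain1 encodes a microtubule plus-end protein, and its peak was centred in an intron 344.5 bp downstream of the TSS, while the Ylpm1 peak lay in a coding exon. The other 8 were centred 10.5 to 202.5 bp upstream. An exact motif was held by 5 of the 10, and the other 5, of Acly, Mtrf1l, Srcin1, Sfxn3 and Dnajb5, each had 1 to 3 sites with 1 mismatch. The next members with an exact motif were those of Lgmn (3.26e-08), Gal3st3 (3.50e-08), Rasa4 (3.76e-08), Dcp1a (4.21e-08) and Aplp2 (4.30e-08). Rasa4 encodes a calcium-regulated brake on Ras and Dcp1a a factor of mRNA decapping. All 10 of these motif-bearing members had a CpG ratio of 0.492 or more, so they stood towards the upper end of the range that the rule allows.

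Within the members, IDR moved with the EGR1 site. The median IDR was 9.72e-06 in the 135 members with an exact motif, 0.000181 in the 486 with only a 1-mismatch site and 0.00110 in the 217 with neither. An IDR of 0.001 or less was reached by 77.0% (69.3 to 83.3%), 63.6% (59.2 to 67.7%) and 47.9% (41.4 to 54.6%) of them, in this order, and the 3 intervals did not overlap. With the members ranked by IDR and cut into 4 classes of 209 or 210, 27.6% (22.0 to 34.0%) of the class with the lowest IDR held the motif, then 16.3%, 11.0% and 9.52% (6.25 to 14.3%) of the following classes. The same order was found in CpG-rich promoter peaks, from 43.8% down to 15.5%. The GC content moved along with it, with a median of 62.5% in members with an exact motif and 57.1% in members with neither.

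**Figure D1:**
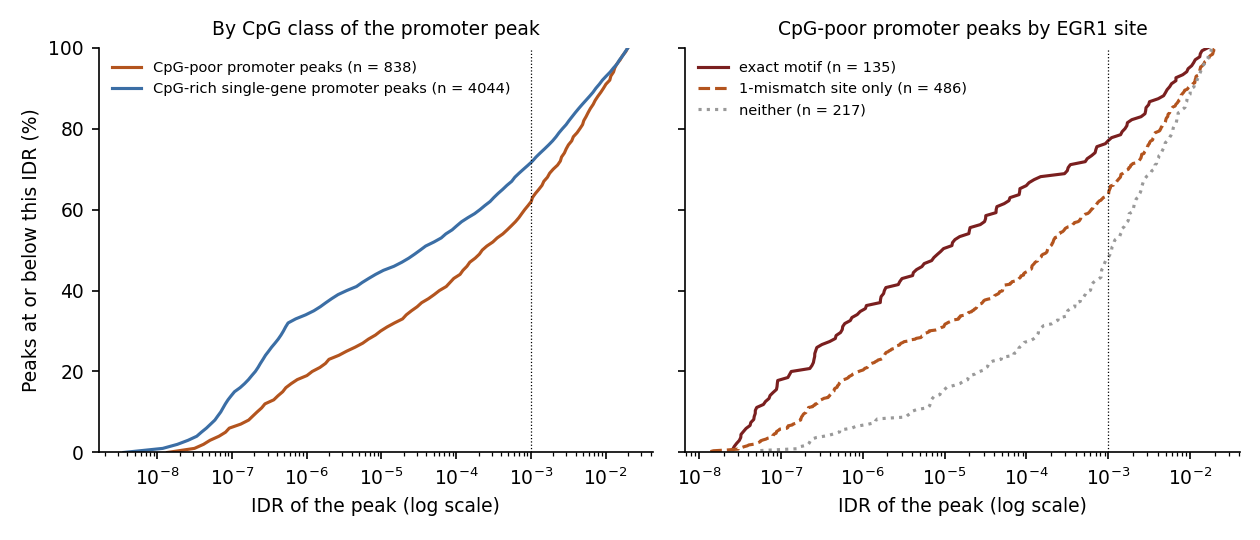
Cumulative share of peaks (y axis, percent) at or below each IDR (x axis, log scale, dotted line at 0.001), for the 838 CpG-poor and 4044 CpG-rich promoter peaks on the left and for the members by EGR1 site on the right. The curve of CpG-poor peaks lies below that of CpG-rich peaks until both near the highest IDR, and the members with an exact motif reach 77.0% at an IDR of 0.001 against 47.9% of those with neither site.

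The exact motif was present in 16.1% of the members (13.8 to 18.8%), 107 with GCGGGGGCG and 28 with GCGTGGGCG. In CpG-rich promoter peaks the share was 25.4% (24.1 to 26.8%). Because the motif itself holds CpGs and the members were chosen for few CpGs, the lower share follows in part from the choice and is no finding. It fell along the CpG ratio within the members, from 19.9% (16.3 to 24.2%) at ratios of 0.5 to 0.6 to 2.33% (0.412 to 12.1%) under 0.2, where 1 of 43 peaks held it. When peaks of like GC content were compared, the intervals of the motif shares overlapped in the 4 classes of GC content from 50 to 70%. At a GC content of 60 to 65% they were 16.6% (12.3 to 22.0%) of 229 members and 18.1% (15.5 to 21.0%) of 757 CpG-rich peaks, and at 65 to 70% they were 26.4% (19.9 to 34.1%) and 24.6% (22.3 to 27.0%). The shares with an IDR of 0.001 or less at these GC contents were 64.2% against 72.1% and 66.7% against 73.1%. At 50 to 55% they were 54.2% (45.7 to 62.5%) against 71% (61.5 to 79.0%), and in the GC classes compared the share was lower in the members each time while the intervals overlapped.

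**Figure D2:**
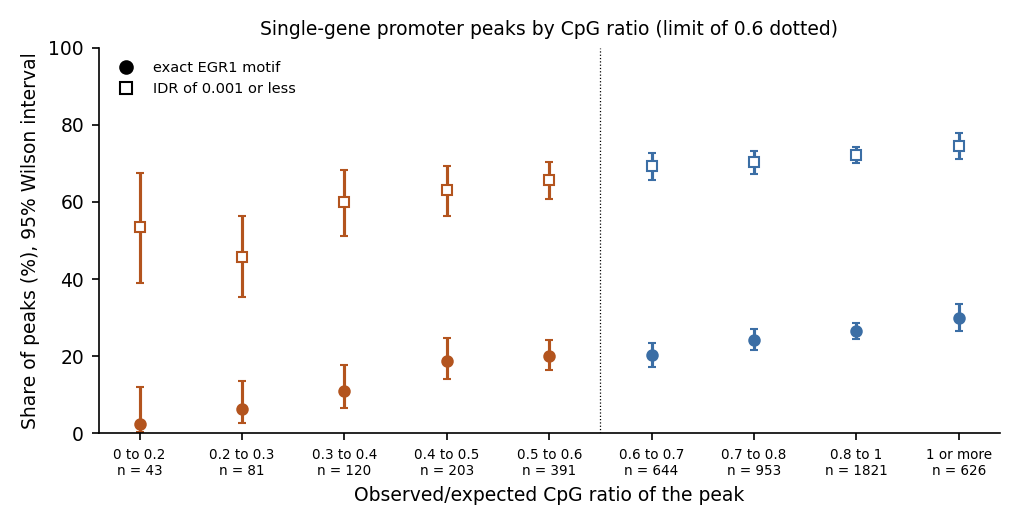
Share of single-gene promoter peaks (y axis, percent, bars for 95% Wilson intervals) with an exact EGR1 motif (filled circles) and with an IDR of 0.001 or less (open squares), by the CpG ratio of the peak (x axis), with the limit of 0.6 dotted. The motif share runs from 2.33% under a ratio of 0.2 to 29.9% at 1 or more, and shows no step at the limit, with 19.9% just below it and 20.2% just above.

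Promoters without EGR1 peaks give the background of these motifs. Among 54319 windows of 250 bp around distinct protein-coding TSSs, the exact motif was found in 4.07%. It was found in 0.526% of the 27955 windows with a CpG ratio under 0.6, in 6.05% (4.91 to 7.44%) of the 1371 of these with an EGR1 peak centre within 500 bp and in 0.241% (0.189 to 0.307%) of the 26584 without. Read the other way, an EGR1 peak lay within 500 bp of 83 of the 147 CpG-poor windows that held the motif, or 56.5% (48.4 to 64.2%). This share was 19.3% (17.7 to 21.0%) of those with only a 1-mismatch site and 3.34% (3.13 to 3.57%) of those with neither. In CpG-rich windows the same shares were 69.5%, 44.4% and 25.2%, each higher than in CpG-poor windows with the same kind of site. Windows of 1 gene can overlap, and GC content moved with these shares too: among CpG-poor windows, 0.419% of those under 45% GC had a peak and 25.3% (22.6 to 28.2%) of those of 65% GC or more.

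In 58.0% of the members (54.6 to 61.3%) the closest match to the motif had 1 mismatch, and in 25.9% (23.0 to 29.0%) none was found. Among the 703 members without an exact motif, the sites with C2A were the most frequent, in 18.1%, followed by C8T in 14.2%, C2T in 8.96% and C8A in 8.82%. All 4 remove a CpG of the motif. In CpG-rich promoter peaks without an exact motif C2A was found in 18.7%, G1C in 11.6%, C8A in 9.82% and C8T in 9.15%, and in CpG-poor windows without a peak C2A was found in 0.773% and C8T in 0.426%. Forms in which both CpGs are replaced by TG or CA (GTGNGGGTG, GCANGGGCA, GTGNGGGCA or GCANGGGTG, with G or T at N) were present in 94 members, or 11.2% (9.26 to 13.5%). They were present in 5.34% (4.69 to 6.08%) of CpG-rich promoter peaks, in 4.83% of CpG-poor windows without a peak and in 4.27% of all windows. The share was 8.39% (7.03 to 9.97%) in CpG-poor windows with a peak and 12.3% (11.8 to 12.9%) over all EGR1 peaks, whose interval overlaps that of the members. Of the 217 members with neither an exact nor a 1-mismatch site, 39 held such a form, or 18% (13.4 to 23.6%). A form without CpGs meets the limit on CpGs more easily than one with them, so these shares are tied to the choice of members as well.

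The exact motif was concentrated at the middle of the members. Counted per 50 bp and 1000 peaks, 68.6 motifs lay at up to 50 bp from the centre and 3.10 at 500 to 1000 bp, a ratio of 22.1. For 1-mismatch sites the ratio was 6.98, and for exact motifs in CpG-rich promoter peaks 30.8. The distance from the peak centre to the middle of the nearest motif was 24 bp in the median, and 51.9% of the 135 members with a motif had it within 25 bp. Only 4 members held more than 1 motif. The motif did not lie evenly around the centre: in 110 of 135 members, or 81.5% (74.1 to 87.1%), it lay at lower genome coordinates, with a median offset of -19.5 bp. This held for genes on the plus strand (52 of 65) and on the minus strand (58 of 70), and the CpG-rich promoter peaks (70.1%, median -16.5 bp) and all other peaks (72.1%, median -15.5 bp) were offset the same way. The middles of the deposited intervals thus stood to the right of the motifs on the reference whichever way the gene ran, and distances from a TSS carry this offset. Its cause was not tested.

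**Figure D3:**
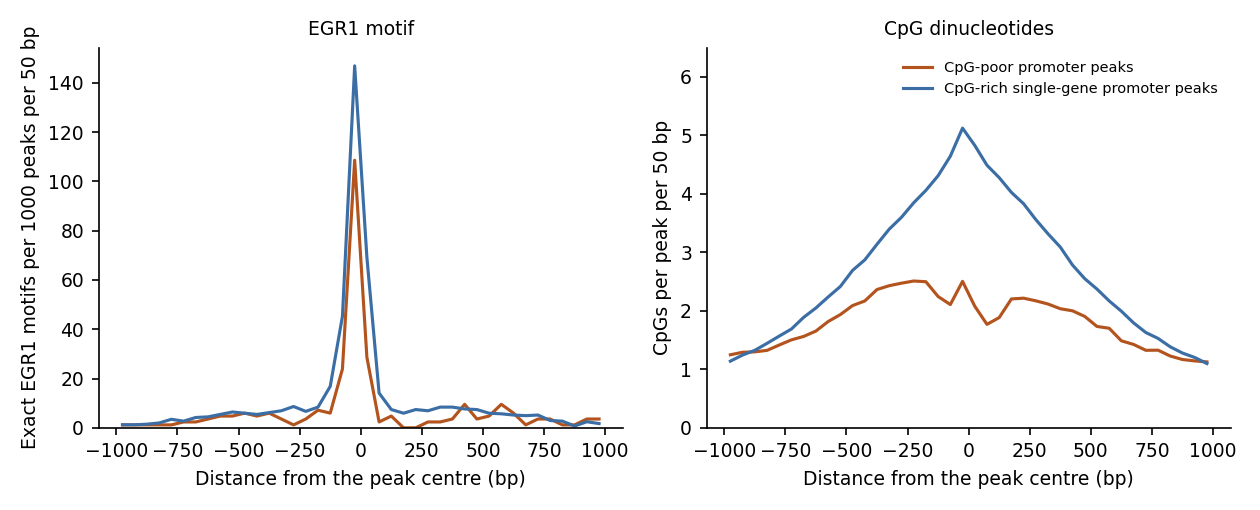
Exact EGR1 motifs per 1000 peaks (left) and CpGs per peak (right) in each 50 bp, against the distance from the peak centre in bp along the reference, for CpG-poor and CpG-rich promoter peaks. The motifs are most frequent just to the left of the centre in both classes. CpGs stay between 1.77 and 2.50 per 50 bp within 150 bp of the centre of CpG-poor peaks and reach 5.13 in CpG-rich peaks.

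Although every member was CpG-poor over its own length, most lay close to CpG-richer sequence. The centre was within 1 kb of a 250-bp window with a GC content of at least 50% and a ratio of 0.6 or more in 684 members, and in 154, or 18.4% (15.9 to 21.1%), no such window was found. The 250 bp around the TSS had a ratio under 0.6 for 424 members (50.6%) and of 0.6 or more for 414. The members were thus a mixture of peaks at TSSs that are CpG-poor themselves and of peaks beside a CpG-richer TSS, and the median distance of the centre from the TSS was 86.5 bp in the first kind and 216 bp in the second. The 154 members without a CpG-rich window had a median IDR of 0.000788 and a motif share of 8.44% (5.00 to 13.9%), against 0.000177 and 17.8% (15.1 to 20.9%) in the 684 others. Their median CpG ratio was 0.306, against 0.512, so the motif share moved with the ratio here as well. An IDR of 0.001 or less was reached by 55.2% (47.3 to 62.8%) and 63.2% (59.5 to 66.7%).

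Among the 154 members in wholly CpG-poor surroundings, those with the lowest IDR, named here after their values were seen, were at Abcd2 (4.87e-08, a peroxisomal fatty acid transporter), Mrgpre (5.07e-08, a G-protein-coupled receptor), Ckmt1 (5.36e-08, the mitochondrial creatine kinase), Iqub (7.17e-08), Atp2b2 (7.92e-08, a plasma membrane calcium pump) and Wdr17 (8.14e-08). Abcd2, Mrgpre and Iqub held an exact motif. The Synpo peak, of the gene of the spine protein synaptopodin, followed with an IDR of 9.15e-08, 4 CpGs and a CpG ratio of 0.454, and the highest ratio of a 250-bp window around it was 0.501. Of the members at the synapse genes listed further on, those of Dlg4 (highest ratio of a window 0.543), Dlgap3 (0.373 and 0.362) and Sv2a (0.588) belonged to the same group.

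Along the gene, 536 members were centred upstream of the nearest TSS, and these were not searched for exons or introns of longer transcripts. Of the others, 115 were centred in exons outside coding sequence, 20 in coding exons and 167 in introns. Downstream centres made up 36% (32.9 to 39.3%) of the members and 37.6% (36.1 to 39.1%) of CpG-rich promoter peaks. The members were less tightly placed around the TSS. The centre was within 100 bp of it in 37.6% (34.4 to 40.9%) of them, against 53.5% (51.9 to 55%), and the peak spanned the TSS in 42.8% (39.5 to 46.2%), against 57.3% (55.8 to 58.9%). Intronic centres were more frequent, 19.9% (17.4 to 22.8%) against 12.7% (11.7 to 13.8%). The median distance from the TSS was 216 bp in members with a CpG-rich TSS window and 86.5 bp in those with a CpG-poor one. These shares of position are therefore tied to the choice of members by CpG ratio as well. The downstream share differed by gene strand. On the plus strand 41% (36.3 to 45.9%) of the members were downstream and on the minus strand 31.5% (27.3 to 36%). CpG-rich promoter peaks gave 40.7% and 34.4%. The part of the offset of the centres from the motifs in this difference was not tested. With the centres moved by -19.5 bp, an alternative added after seeing the data, the downstream share of both strands together was 35.5%. Shares by strand were not computed for it.

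**Figure D4:**
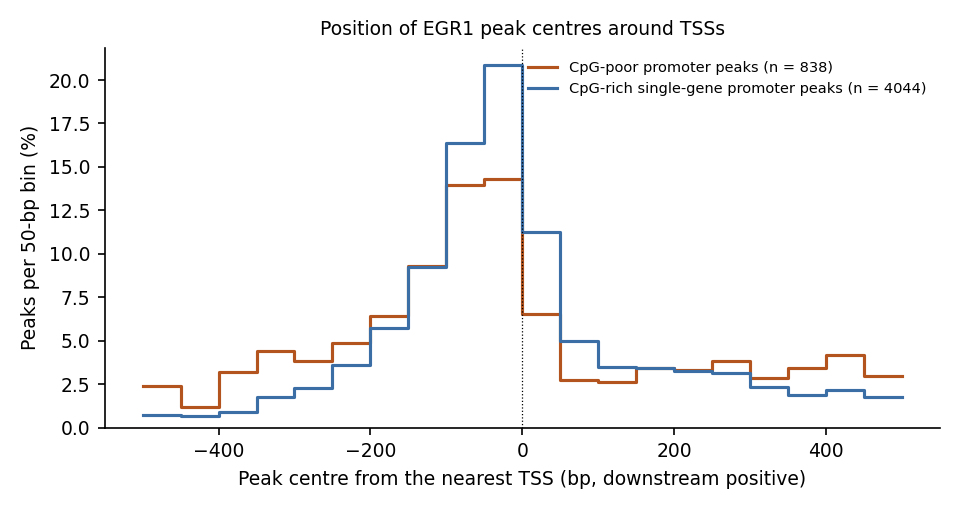
Share of peaks (y axis, percent per 50-bp bin) by the position of the peak centre from the nearest TSS (x axis, bp, downstream positive along the gene), for the 838 CpG-poor and 4044 CpG-rich promoter peaks. Both classes are highest in the bins just upstream of the TSS, and the CpG-poor peaks have the lower crest and the broader shoulders.

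A TATA box stood at the nearest TSS of 8 members, or 0.955% (0.485 to 1.87%). The share was 0.915% (0.664 to 1.26%) at CpG-rich promoter peaks, 2.19% in all promoter windows and 3.39% (3.19 to 3.61%) in CpG-poor windows. These sets are not alike, since the TSS window was CpG-rich for 414 members, and 0.910% (0.803 to 1.03%) of CpG-rich windows had a TATA box. Among CpG-poor windows it was found in 0.802% (0.449 to 1.43%) of those with an EGR1 peak. In those without a peak the share was 3.52% (3.31 to 3.75%). Only 11 of 948 CpG-poor windows with a TATA box, or 1.16% (0.649 to 2.07%), had an EGR1 peak within 500 bp. Those windows had a median GC content of 47.2%, against 59.2% in CpG-poor windows with a peak. The 8 genes, in order of IDR, were Krtap11-1 (6.57e-06, a keratin-associated protein), Kazald1 (8.93e-06), Fam83d (4.21e-05), Gadd45g (0.000217), Abr (0.000244), Magi1 (0.00323, a scaffold of cell junctions), Ecm1 (0.00389) and Rai2 (0.005). Those of Krtap11-1 and Gadd45g were centred 473.5 and 496.5 bp downstream of the TSS with the box. Of the 8, the Kazald1 peak held an exact motif.

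Other promoter elements were counted on both strands in the peaks and in the 250-bp windows. GGGCGG, the core of the GC box read by SP and KLF factors, was present in 63.1% (59.8 to 66.3%) of the members, 82.3% of CpG-rich promoter peaks, 14.9% of CpG-poor windows, 47.1% (44.5 to 49.8%) of those with a peak and 41.1% of all windows. It can overlap an EGR1 motif that is followed by G, and with such overlaps left out 57.5% (54.1 to 60.8%) of the members held it. CCAAT, read by NF-Y, was in 32.2% (29.1 to 35.5%) of the members and 27.2% (25.8 to 28.5%) of CpG-rich peaks, and in 31.1% of CpG-poor and 29.2% of all windows. The AP-1 element of FOS and JUN (TGACTCA or TGAGTCA) was in 30 members, or 3.58% (2.52 to 5.06%), against 1.68% (1.33 to 2.13%) of CpG-rich peaks, 4.82% of CpG-poor windows and 3.36% of all windows. The E-box CACGTG was in 7.16% (5.60 to 9.11%) of the members and 6.02% of all windows, the CArG box of SRF in 1.31% and 0.976%, and the cAMP response element TGACGTCA in 0.835% and 1.76%. The E-box and the CArG box had intervals that overlapped between the members and CpG-rich peaks. The intervals of the other elements did not, with GGGCGG and the cAMP response element (2.37% of CpG-rich peaks) lower and CCAAT and AP-1 higher in the members. Over all EGR1 peaks, AP-1 was found in 4.72% (4.36 to 5.12%), the cAMP response element in 1.30%, CCAAT in 24.7% and GGGCGG in 55.8%, so AP-1 was no more frequent in the members than in the list as a whole. GGGCGG, the cAMP response element and the E-box CACGTG each hold a CpG, so their shares are tied to the choice of members.

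The members had a median GC content of 60% (quartiles 55.7 and 64.8%), against 68.3% in CpG-rich promoter peaks, and a median of 10 CpGs, against 21. Both medians of width were 250 bp. The G share of G and C on the gene strand was 51.3% in the median, against 52.2%. Repeat-masked sequence covered over 50% of 6 members, and for 3 members (Taf1b, Dnah7a and Tceal3) the 31-bp word at the middle occurs more than once in the assembled chromosomes. Another EGR1 peak centre lay within 1 kb of 18.4% (15.9 to 21.1%) of the members and of 18.8% of CpG-rich promoter peaks. By chromosome, the members were 11.4% of the single-gene promoter peaks on chromosome 13 and 26.8% on chromosome X (26 of 97), the lowest and the highest share.

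The lowest CpG ratios were those of 5 members with 0 CpGs, at Dlgap3 (IDR 6.68e-06, chr4:127172790-127172944), Mup5 (0.000319, a major urinary protein of a multigene family), Ankrd24 (0.000824), Sept9 (0.000832, a septin) and Lrrc47 (0.00249). A peak with 0 CpGs can hold neither an exact nor a 1-mismatch site, since 1 mismatch removes only 1 of the CpGs of the motif. At the limit of 0.6, which the rule sets, the members just inside were at Adamtsl1 (0.599975), Tmppe (0.599924) and Gal3st3 (0.599834), and the peaks just outside were at Smad2 (0.6), Cic (0.60024) and Sgk1 (0.600364). The peaks at this edge are not sharply divided. When starts were counted from 1 in place of 0, 21 members left, among them those of Actn1, Akirin1, Icam5 and Lgmn, and 22 peaks joined.

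The members lay nearest to TSSs of 805 genes, or 3.68% of the 21850 protein-coding genes, while 24.9% of these genes had any EGR1 peak centre within 500 bp of a TSS. Of the 9165 genes whose promoter windows were all CpG-poor, 352, or 3.84% (3.47 to 4.25%), had an EGR1 peak by this measure. Of the 7237 genes whose windows were all CpG-rich, 38.3% had one (37.2 to 39.5%). Of the 805 genes with a member, 190 had CpG-poor windows only, 212 CpG-rich windows only and 403 both kinds, so most of them had at least 1 CpG-rich window beside the CpG-poor peak. A CpG-rich promoter peak of the same gene was found for 155 of the 805, or 19.3% (16.7 to 22.1%). Genes with more annotated TSSs held members more often, 2.32% of those with 1 TSS, 2.86% with 2, 4.69% with 3 or 4 and 7.97% with 5 or more.

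There were 31 genes with 2 members and 1 gene with 3. The latter was Nab2, whose product represses EGR1-driven transcription. Its peaks were at chr10:127668813-127668987 (IDR 4.88e-08, an exact motif, 332 bp upstream of a TSS), at chr10:127668137-127668400 (0.000123, in an intron, 3 sites with 1 mismatch) and at chr10:127665657-127665910 (0.00051, upstream of another TSS, neither site). The count for Nab2 depends on the annotation and the rule, since at least 1 of its peaks was no member with a CpG ratio limit of 0.5, with only transcripts tagged basic, with TSSs within 250 bp, or with genes on opposite strands looked for within 2 kb. Among the genes with 2 were Tmem63c (6.88e-08 and 4.48e-07, an ion channel of the membrane-stretch family), Brsk1 (1.80e-06 and 9.88e-06, a kinase of neuronal polarity), Arhgef2 (3.69e-06 and 6.50e-06, a guanine nucleotide exchange factor), Zyx (1.84e-06 and 0.00329, a focal adhesion protein) and Dlgap3 (6.68e-06 and 0.00106). Smarca2, a catalytic subunit of the SWI/SNF remodellers, had peaks at 0.00052 and 0.00319, and Kcnip2, a subunit of A-type potassium channels, at 0.000741 and 0.00203. Peaks of 1 gene share a locus and are not independent of each other. The others with 2 were Ablim1, Acvr1c, Celf5, Dmtn, Dnah7a, Fam53b, Gm9837, Gng7, Jakmip1, Jph4, Klhl3, Lmna, Map4k4, Myadm, Nedd4l, Nfkbid, Pcnx2, Plcd1, Ppm1b, Rimbp2, Scrt1, Slc27a1, Slc29a1 and Specc1.

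Members were more frequent at the listed synapse genes than over all genes. This list, like those below, was chosen with earlier results of these data known. Of 69 synapse genes, 13 had at least 1 member, or 18.8% (11.4 to 29.6%), against the 3.68% of all genes. Any EGR1 peak was found for 47.8% (36.5 to 59.4%) of them, against 24.9%. On the postsynaptic side they included Synpo (9.15e-08), Dlg4 (1.08e-06), Dlgap3 (6.68e-06), Icam5 (6.96e-06, an adhesion protein of forebrain dendrites), Nrgn (0.00162, a calmodulin buffer), Shank2 (0.00226, a scaffold) and Camk2b (0.00252, a calcium-dependent kinase). On the presynaptic side they were Syt1 (1.68e-06), Rims2 (0.00131, an active zone scaffold), Sv2a (0.00359, a vesicle protein), Vamp1 (0.00772, a vesicle fusion protein) and Syt5 (0.00999). Of the peaks named here, those of Dlg4, Syt1 and Icam5 held an exact motif. The list has a mean of 3.91 TSSs per gene, against 2.49 over all genes, and the part of this in the count was not tested.

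Genes of membrane excitability came next, and those named in this paragraph were chosen after their values were seen. Of 94 potassium channel genes, 15 had a member, or 16.0% (9.92 to 24.7%), against the 3.68% of all genes. Any EGR1 peak was found for 37.2% (28.1 to 47.3%) of this list, against 24.9% of all genes. Its mean was 2.55 TSSs per gene, against 2.49 over all genes. The lowest IDR was at Kcna4 (8.84e-08, a voltage-gated channel subunit of the Shaker family), whose peak held an exact motif and was centred 9.5 bp upstream of the TSS, followed by Kcnt2 (4.07e-06, a sodium-activated channel) and Kcns2 (1.98e-05), both with an exact motif, and Kcnq3 (8.52e-05, a subunit of the M current). Of 40 calcium and sodium channel genes 5 had a member, or 12.5% (5.46 to 26.1%), with Cacng3 (3.81e-07, an auxiliary subunit of AMPA receptors) first. The others were Cacng5, of the same symbol series, Cacnb4, Cacna1b and Cacnb1. Cacng3 is counted here by its symbol, so not every gene of this count encodes a part of a calcium or sodium channel. Any EGR1 peak was found for 27.5% (16.1 to 42.8%) of the 40 genes, close to the 24.9% of all genes. The 40 had a mean of 3.275 TSSs per gene. Of 20 ionotropic and metabotropic glutamate receptor genes 3 had a member, or 15.0% (5.24 to 36%). These were metabotropic receptor genes, Grm7 (2.28e-07), Grm3 (2.54e-07, with an exact motif) and Grm5 (4.91e-07). Any EGR1 peak was found for 40% (21.9 to 61.3%) of the 20, with a mean of 3 TSSs per gene. The part of the number of TSSs in these counts was not tested. Of 62 amine, opioid and somatostatin receptor genes 4 had a member, or 6.45% (2.54 to 15.4%), Sstr3 (2.22e-07) first. The interval holds the 3.68% of all genes. Any EGR1 peak was found for 16.1% of the 62 (upper limit 27.2%), against 24.9% of all genes, which lies inside that interval. Of 19 GABA receptor genes none had a member (Wilson upper limit 16.8%), although 6 had an EGR1 peak of another kind. The 3.68% of all genes lies inside the GABA interval too, so a lower share was not detectable there.

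Genes induced by neuronal activity are set here against the 3.68% of all genes with a member. Of 28 activity-induced transcription factors, 2 had one, or 7.14% (1.98 to 22.6%), namely Fosl2 (1.80e-07) and Egr1 itself (0.00603, centred 190.5 bp upstream of its TSS, with 1 mismatched site). Of 37 activity-induced effectors 4 had one, or 10.8% (4.29 to 24.7%), namely Nrn1 (1.16e-05, a secreted protein of neurite growth), Vgf (3.36e-05), Dusp14 (4.97e-05, a phosphatase of MAP kinases) and Gadd45g (0.000217). Most of the peaks at these lists were of another kind, since 15 of the 28 factors (53.6%) and 17 of the 37 effectors (45.9%) had an EGR1 peak centre within 500 bp of a TSS. Vgf was the only neuropeptide gene of 28 with a member.

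Markers of other cell types were without members in these lists. None was found at 30 oligodendrocyte and myelin markers, 20 astrocyte markers, 25 microglia markers or 30 endothelial and mural markers, for which the Wilson intervals reach 11.4%, 16.1%, 13.3% and 11.4%. Any EGR1 peak within 500 bp of a TSS was found for 2, 3, 0 and 2 of them, against 24.9% of all genes. The shares were 6.67% (1.85 to 21.3%), 15% (5.24 to 36%), 0 (upper limit 13.3%) and 6.67% (1.85 to 21.3%). Only the astrocyte interval holds 24.9%. CpG-poor windows only were found for 13, 8, 22 and 20 of these markers. Over all genes of that class 3.84% had any EGR1 peak, and the part of this in the shares was not tested. For members, the 3.68% of all genes lies inside each of the intervals given first. A lower share of members than the background was thus not detectable in lists of this size. Olfactory, vomeronasal and taste receptor genes, 1511 of whose 1518 had CpG-poor windows only, had 0 members (upper limit 0.252%), and defensins and serpins had 0 of 125 (2.98%). Of the defensins and serpins, 121 had CpG-poor windows only. Over all genes of that class 2.07% (1.80 to 2.39%) had a member, a share inside the interval of the defensins and serpins. The cytokine and keratin lists given below were mostly of that class too (93 of 117 and 104 of 113 genes). Ribosomal protein genes (4 of 98, of which Rps6kl1 and Rps6ka4 are kinases caught by the search on symbols), zinc finger genes (15 of 394) and solute carriers (15 of 371) stood at 4.08%, 3.81% and 4.04%, close to the background. The other families ranged from 0 of 48 muscle myosin, troponin and actin genes and 0 of 46 complex I genes to 2 of 40 proteasome subunits, with 1.71% of cytokines and chemokines, 1.77% of keratins, 2.46% of cytochromes P450 and glucuronosyltransferases and 4.35% of regulators of G-protein signalling. The search on symbols misplaced some of these too. The 2 members counted for cytokines were at receptor genes, Il11ra1 and Il1r2. The 1 member counted for the regulators was at Rgs7bp, which encodes a protein that binds such a regulator.

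**Figure D5:**
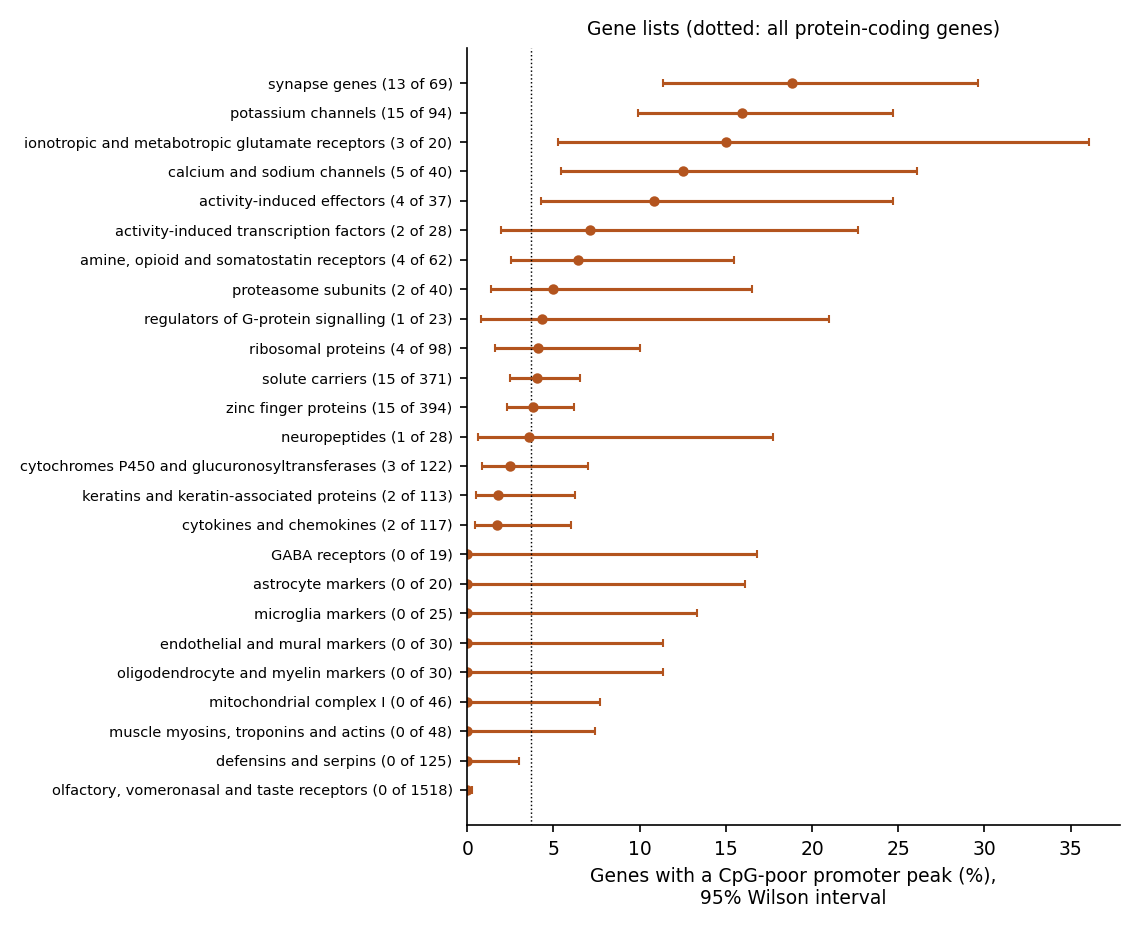
Share of the genes of each list with at least 1 CpG-poor promoter peak (x axis, percent, bars for 95% Wilson intervals over genes, counts in brackets), with all protein-coding genes as the dotted line at 3.68%. The intervals of the synapse genes, potassium channels, glutamate receptors, calcium and sodium channels and activity-induced effectors lie above the line, and those of the chemoreceptors and of the defensins and serpins lie below it. Among genes with CpG-poor windows only, 2.07% had a member. The interval of the defensins and serpins holds this share and that of the chemoreceptors does not.

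The ChIP-qPCR primers of the study were placed on mm10 to see whether a member lay in an amplicon, and none did. The nearest peak was a member for 3 of them. The Synpo amplicon ended 40 bp from the Synpo member, and the Sstr3 amplicon 126 bp from the Sstr3 member, which has 1 CpG in 150 bp, a ratio of 0.174 and neither an exact nor a 1-mismatch site, but a form in which both CpGs are replaced. The Grm7 amplicon lay 101087 bp from the member at the Grm7 TSS. The peak under the Arpp21 amplicon had a ratio of 0.608, just above the limit.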

How the data were processed

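The deposited file of the EGR1 ChIP-seq holds 1 merged peak list with chromosome, start, end and IDR per peak, and input DNA was not analysed here. The authors trimmed reads by quality, used Bowtie against mm10 and SPP for peak calling, and kept peaks within the IDR limit of 2%. The submitters' processing notes name cutadapt 11.2, Bowtie2 2.2.9 and bedtools 2.26.0. The deposited IDR is a probability read like a q-value.

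Starts were taken as counted from 0, since the sources used here do not state it, and positions are printed counted from 1. Sequences were read from GRCm38.p6 (mm10) and TSSs from protein-coding transcripts of GENCODE release M21, and 76 scaffold peaks were dropped. TATA boxes were searched on the gene strand and the other elements on both. With 1 merged list no test over samples was possible. The members and gene lists were chosen with earlier results of these data known. The genes named were members in the activity, neuropeptide, cell type and synapse lists, the 10 with the lowest IDR among all members, among those with a motif and among those with a TATA box, genes with 2 or more members, those at amplicons, the 3 nearest to the limit of 0.6 on each side and the 5 with the lowest ratio. Members named besides, in the channel, receptor and other families or without a CpG-rich window, were chosen after their values were seen. A synapse gene of the counts is not reported here by name. Alternatives are given in the closing section. Python 3.11.15, matplotlib 3.10.9, numba 0.67.0, numpy 2.4.6, pandas 2.3.3 and scipy 1.17.1 were used, and scripts were tested on simulated data.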

Additional observations from a re-analysis of the deposited data

How the results depend on the processing

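Of 68 alternative values, 53 stayed within the 95% interval of the value given, or within 1.5 times for the count, and 15 did not. The number of members, 838, was 447 with a CpG ratio limit of 0.5, 1482 with a limit of 0.7 and 517 with only peaks of an IDR of 0.001 or less. The share with an IDR of 0.001 or less, 61.7%, was 58.2% with the limit of 0.5 and 65% with 0.7. The motif share, 16.1%, was 12.8% with the limit of 0.5 and 20.1% with only peaks of an IDR of 0.001 or less. The downstream share, 36%, was 27.7% with TSSs within 250 bp and 43.8% within 1000 bp. The share of genes with CpG-poor promoters only that had a peak, 3.84%, was 2.11% and 7.26% with limits of 0.5 and 0.7, 2.75% and 5.02% within 250 and 1000 bp, 3.23% with the TSSs of every transcript of a protein-coding gene and 2.37% with only peaks of an IDR of 0.001 or less. The TATA share stayed within its interval in the 12 alternatives run. A limit changes which peaks count, so these moves follow from the construction of the alternatives. Centres moved by -19.5 bp, which was chosen after seeing the data, changed no value beyond its interval and left 828 members shared. With the CpG ratio taken over 300 bp around the centre, 713 members were shared and 125 were not. Those lost included the members of Actn1, Akirin1, Lgmn, Gal3st3, Aplp2, Fosl2, Egr1, Camk2b, Icam5 and Nrgn. The limit of 0.5 dropped all of these too, with those of Ralb, Vgf, Rims2, Shank2, Sv2a, Syt5 and Vamp1. Many of the motif examples and of the named synapse and activity genes thus rest on peaks near the limit. Counts of the gene lists were not computed under the alternatives. No paired analysis was possible because the 2 ChIP experiments were merged into 1 list. For the same reason no replicate could be left out, and without counts the depth behind each peak is unknown.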
